A study of Mus musculus with 6 samples.

Results

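Aminoacyl-tRNA synthetases are the enzymes that load each tRNA with its amino acid. Their genes were chosen by name and biotype: every protein-coding gene of the deposited table whose symbol is a letter followed by "ars" (with or without a final digit), Farsa, Farsb or Eprs. This family was proposed after results of the same IP and input counts had been seen, so that the values below describe the members and do not test the choice. The rule found 37 of 27884 genes, of which 17402 are protein-coding. By symbol, 20 encode cytosolic enzymes and the 17 ending in "2" encode mitochondrial enzymes. All 37 passed the filter on low counts, which left 18640 genes to be tested.

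The samples were preoptic area tissue of the hypothalamus from female NuTRAP::Pnoc-Cre mice aged 17 to 18 weeks, with 3 animals pooled in each of 3 replicates. NuTRAP is a Cre-dependent allele that tags ribosomes with EGFP, and Pnoc-Cre switches it on where the Pnoc promoter is or was active, Pnoc encoding the precursor of the peptide nociceptin. From each pool, RNA on ribosomes captured with an antibody against GFP (IP, 3 libraries) was compared with total RNA of the same tissue (input, 3 libraries), to ask which transcripts are enriched on the ribosomes of PNOC cells. All 6 libraries came from animals of this one genotype, were poly(A)-selected and read as pairs of 75 bp, and no untagged or Cre-negative control was analysed here. Total counts lay between 48204567 and 53056642 per library.

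The labels and cell types were checked on marker genes. Pnoc was at 41.2 to 47.7 CPM (counts scaled to library size) in IP and 7.51 to 13.2 CPM in input (log2 fold change 2.06 ± 0.22 SE, edgeR adjusted p = 0.000472). All 7 astrocyte, 7 oligodendrocyte, 3 oligodendrocyte precursor, 6 microglia and 5 endothelial and mural markers were lower in IP. Their summed levels did not reach 0: the astrocyte markers summed to 312 to 410 CPM in IP against 1886 to 2733 CPM in input, and the oligodendrocyte markers to 668 to 980 CPM against 4966 to 6318 CPM. Of 8 pan-neuronal markers 3 were higher in IP and none lower, and of 3 GABAergic markers 2 were higher. Every synthetase value below therefore compares RNA of a neuron-rich fraction with RNA of whole tissue, and fewer cells of a type cannot be told apart from less RNA per cell. The part of these marker shifts in the synthetase values was not tested.

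Cytosolic synthetases charge the tRNAs that serve ribosomes in the cytoplasm, and a separate, nuclear-encoded set is imported to charge the tRNAs of mitochondria. In mammals, 8 of the cytosolic synthetase genes encode subunits of the multi-synthetase complex, a particle held together by the scaffold proteins encoded by Aimp1, Aimp2 and Eef1e1. When amino acids run short, uncharged tRNA activates the kinase GCN2, translation of the transcription factor ATF4 increases, and ATF4 raises transcription of several synthetases through amino acid response elements. Neurons depend on these enzymes, and variants of several of them cause inherited peripheral neuropathy in people.

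The amino acid response element was looked for first, because ATF4 is known to raise some cytosolic synthetases through it. The search was for TGATGNAA on either strand in RefSeq promoters of build GRCm38.p6, each a window of 300 bases from 250 before to 50 after the gene's start. Of the members, 27 had an entry in that table. A gene was counted if any of its windows held the element. Among cytosolic enzymes 5 of 13 genes (38.5%) held it, and among mitochondrial enzymes 0 of 14. Over all 27025 genes with a promoter the share was 4.51%, and over the 17492 protein-coding genes among them 4.13%. The 5 promoters are those of Aars, Gars, Iars, Tars and Yars, shown here to place the element beside the start of transcription. Each line runs from 50 bases before the start to base 29 after the first transcribed base, in the direction of the gene, and capitals mark the match.
Aars (chr8:111033792-111033871, plus strand): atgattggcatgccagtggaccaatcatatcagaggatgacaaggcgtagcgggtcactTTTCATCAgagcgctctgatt
Gars (chr6:55037951-55038030, plus strand): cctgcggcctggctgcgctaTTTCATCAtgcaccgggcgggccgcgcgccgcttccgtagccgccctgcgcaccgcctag
Iars (chr13:49682080-49682159, plus strand): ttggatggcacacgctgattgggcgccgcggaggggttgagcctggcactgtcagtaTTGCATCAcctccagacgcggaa
Tars (chr15:11399629-11399708, minus strand): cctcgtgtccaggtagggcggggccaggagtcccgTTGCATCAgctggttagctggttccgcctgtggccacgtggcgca
Yars (chr4:129189853-129189932, plus strand): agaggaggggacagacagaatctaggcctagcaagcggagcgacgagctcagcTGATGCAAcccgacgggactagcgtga
In Yars the match lies on the gene's own strand, and in the other 4 it is read as the reverse complement. Aars held another match, TTGCATCA, 112 bases before the start and outside the stretch shown. A match describes the letters in the window and is not evidence of binding.

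Levels were compared between genes per length, on the authors' FPKM (fragments scaled by gene length and library depth). In input the cytosolic enzymes ran from 3.99 FPKM (Eprs, the joint glutamyl- and prolyl-tRNA synthetase) to 56.7 ± 6.26 FPKM (SD, n = 3; Nars, the asparaginyl enzyme), with a median of 15.5 FPKM. Hars (50.3 ± 4.12 FPKM) and Gars (46.9 ± 6.60 FPKM) followed Nars, and their libraries overlapped those of Nars. The low place of Eprs depends on gene length: the table counts 18102 bases for it, while its canonical GENCODE transcript has 6329. Apart from Lars2, the mitochondrial enzymes lay between 1.20 FPKM (Wars2) and 6.47 FPKM (Rars2), with a median of 2.78 FPKM. Lars2, the mitochondrial leucyl-tRNA synthetase, stood at 31.0 ± 11.7 FPKM in input and 114 ± 21.4 FPKM in IP.

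**Figure D1:**
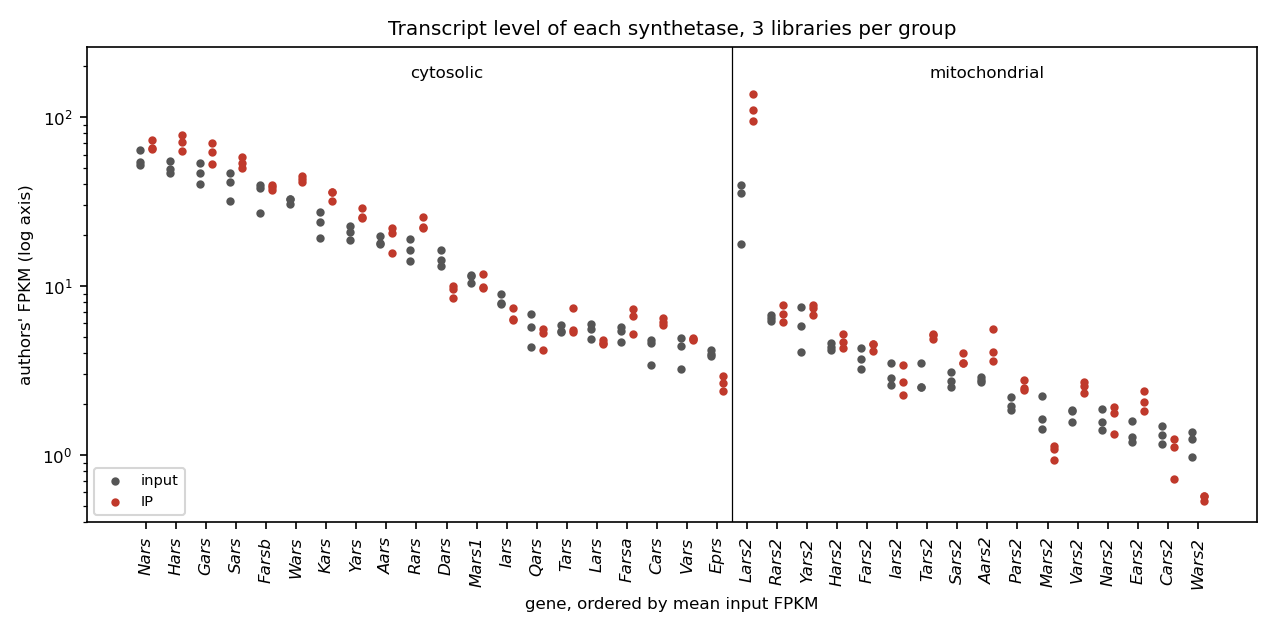
Authors' FPKM (log axis) of the synthetases in the 3 input libraries (grey) and the 3 IP libraries (red), cytosolic genes on the left and mitochondrial genes on the right, ordered by mean input level. Most mitochondrial enzymes lie below most cytosolic ones, and Lars2 stands far above the other mitochondrial genes in both groups; 1 mitochondrial gene is not shown.

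Between IP and input, 8 members were higher in IP, 4 were lower and 25 were not called at an adjusted p under 0.05 (edgeR's quasi-likelihood fit of all tested genes, adjusted by Benjamini-Hochberg). Across all tested genes 12.9% were higher and 17.1% lower in IP, and across protein-coding genes 15.0% and 19.0%. Among the 10820 protein-coding genes in the members' range of expression 19.7% were higher and 18.5% lower, against 21.6% and 10.8% of the members. In 21 of the 37 members (56.8%) the IP and input libraries did not overlap in CPM, against 47.7% of all tested genes and 55.5% of those in the members' range of expression. The share of members higher in IP and the share without overlap were thus near those of genes of like expression. The family's median log2 fold change was 0.21, that of all tested genes -0.07, and that of genes in the members' range of expression 0.03.

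The 20 cytosolic enzymes divided into 5 higher, 2 lower and 13 not called, with a median log2 fold change of 0.21. Their median differed by pool, at 0.44, 0.29 and -0.06 in pools 1, 2 and 3. The 17 mitochondrial enzymes divided into 3 higher, 2 lower and 12 not called, with the same median of 0.21 and pool medians of 0.32, 0.17 and 0.23. Without Lars2 the mitochondrial median was 0.14. Cytosolic transcripts summed to 1938 to 2278 CPM in IP and 1633 to 1945 CPM in input. Within pools 1, 2 and 3 the cytosolic sum was 2100, 2278 and 1938 CPM in IP against 1633, 1945 and 1834 CPM in input, higher in IP in each. Mitochondrial transcripts other than Lars2 summed to 262, 274 and 252 CPM in IP against 240, 235 and 241 CPM in input, also higher in IP in each pool. These sums use TMM scaling and were not tested. With library totals alone, values of IP replicate 3 fall and those of input replicate 3 rise (Lars2 from 1510 to 1458 CPM and from 448 to 472 CPM). The order of both sums in pool 3 depends on that scaling.

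**Figure D2:**
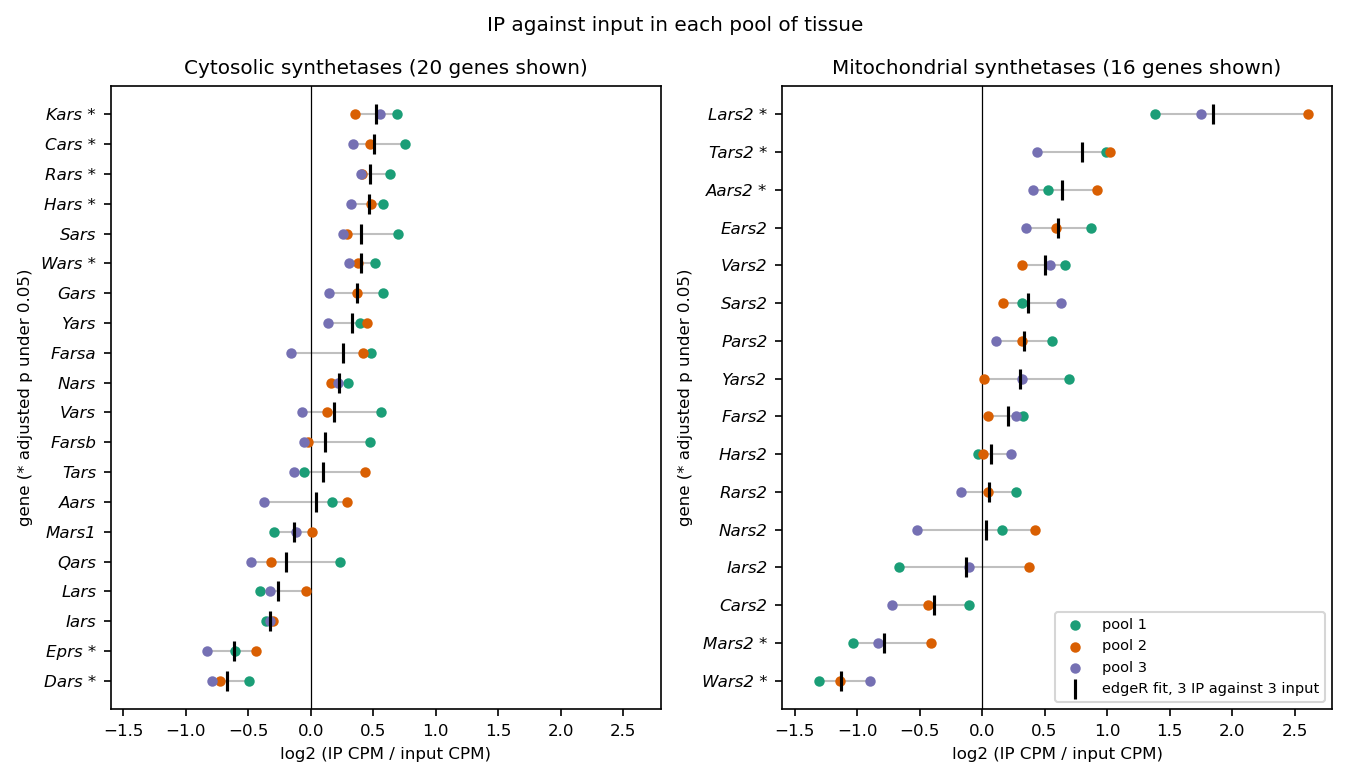
Log2 ratio of IP to input CPM for the synthetases (rows; 1 mitochondrial gene is not shown), with 1 point per pool and a bar for the edgeR fit over 3 IP and 3 input libraries. An asterisk marks an adjusted p under 0.05; Lars2 is the highest of all members at 1.85 and Wars2 the lowest at -1.13.

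The cytosolic enzymes higher in IP were Kars, Cars, Rars, Hars and Wars, by 1.32- to 1.44-fold. Kars, which encodes both the cytosolic and the mitochondrial lysyl enzyme, was at 144, 160 and 159 CPM in IP replicates 1, 2 and 3 and at 89.1, 125 and 108 CPM in input. The groups did not overlap, though input replicate 2 came near them (log2 fold change 0.52 ± 0.15 SE, edgeR adjusted p = 0.0300). Cars, the cysteinyl enzyme, was at 38.9, 42.5 and 40.3 CPM in IP and 23.1, 30.6 and 31.9 CPM in input (0.51 ± 0.16, edgeR adjusted p = 0.0413). Rars, the arginyl enzyme, was at 73.1, 82.6 and 70.4 CPM in IP and 47.1, 62.1 and 53.2 CPM in input (0.48 ± 0.15, edgeR adjusted p = 0.0391). In each of these genes the lowest value of all was input replicate 1. Hars, the histidyl enzyme, averaged 173 ± 18.6 CPM in IP and 126 ± 9.41 CPM in input (SD, n = 3; edgeR adjusted p = 0.0287). Wars, the tryptophanyl enzyme, averaged 149 ± 6.26 CPM in IP and 113 ± 3.52 CPM in input (edgeR adjusted p = 0.0277). These 5 calls depend on single libraries and on scaling: the count of cytosolic enzymes higher in IP was 0 without IP replicate 1, 0 without IP replicate 2, 1 without IP replicate 3, 3 without input replicate 1 and 0 without input replicate 3. It was also 0 when libraries were scaled by their totals alone.

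The cytosolic enzymes lower in IP were Dars and Eprs. Dars, the aspartyl-tRNA synthetase (chromosome 1, 128291444 to 128345105, mm39), was at 42.0, 43.5 and 36.7 CPM in IP and 59.0, 72.0 and 63.2 CPM in input. Every IP library lay below every input library (log2 fold change -0.67 ± 0.14 SE, edgeR adjusted p = 0.00844). Eprs (chromosome 1, 185095241 to 185160557, mm39) was at 48.7, 52.7 and 43.0 CPM in IP and 74.0, 71.1 and 76.2 CPM in input, again without overlap (-0.62 ± 0.13, edgeR adjusted p = 0.00885). Dars kept its call without any one library, and Eprs lost it without input replicate 3 (edgeR adjusted p = 0.0559). Without both libraries of replicate 3 neither gene was called, and Dars was not called without those of replicate 2. Both calls were lost when each library was corrected for transcript length and GC content and the mean change was set to 0, a correction that moves the median of all genes up by 0.33.

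Among the cytosolic enzymes short of the threshold, Iars, Lars, Sars and Yars had groups that did not overlap. Uncalled mitochondrial enzymes without overlap included Ears2, Vars2, Sars2 and Pars2. Iars, the isoleucyl enzyme, was at 33.8, 38.8 and 33.1 CPM in IP and 43.2, 47.8 and 41.6 CPM in input (log2 fold change -0.33 ± 0.13 SE, edgeR adjusted p = 0.100). Sars, the seryl enzyme, had a log2 fold change of 0.40 ± 0.15 (edgeR adjusted p = 0.0794), and passed the threshold when the pool was entered as a replicate block (edgeR adjusted p = 0.0449). Yars, the tyrosyl enzyme, had one of 0.33 ± 0.13 (edgeR adjusted p = 0.0824). Gars, which like Kars encodes a cytosolic and a mitochondrial enzyme, was at 194, 219 and 164 CPM in IP and 130, 169 and 148 CPM in input, so that IP replicate 3 fell inside the input range (0.37 ± 0.15, edgeR adjusted p = 0.107). Nars, the highest by level, was at 288, 317 and 279 CPM in IP and 234, 282 and 240 CPM in input, with overlap (0.23 ± 0.12, edgeR adjusted p = 0.208).

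The cytosolic enzymes were then divided by membership of the multi-synthetase complex. Of the 8 complex enzymes 6 had a log2 fold change below 0, 2 were called lower (Dars, Eprs) and 2 higher (Kars, Rars), with a median of -0.23. Of the 12 cytosolic enzymes outside it all 12 lay above 0, 3 were called higher (Cars, Hars, Wars) and none lower, with a median of 0.29. Over all tested genes 12.9% were called higher and 17.1% lower, and 8716 of 18640 lay above 0. Among protein-coding genes in the members' range of expression 5655 of 10820 lay above 0. By pool, the complex medians were -0.33, -0.17 and -0.33 and the others 0.50, 0.37 and 0.14. In pools 1, 2 and 3, 11, 11 and 7 of the 12 others lay above 0, and 3, 3 and 2 of the 8 complex enzymes. With library totals alone 10 of the 12 others lay above 0, as with the length and GC correction and the mean change kept. Among the complex enzymes not called were Mars1 (methionyl, -0.13), Qars (glutaminyl, -0.20), Lars (leucyl, -0.26) and Iars (-0.33). Leaving out any one library kept 6 of 8 complex enzymes below 0 and 10 to 12 of the 12 others above 0. With the correction for length and GC content and the mean change set to 0, however, 2 of 8 complex enzymes lay below 0 and their median was 0.09, against 0.58 for the others, so that the direction of the complex enzymes depends on where the mean is set. The difference between the 2 lists was not tested. Canonical transcripts had medians of 2870 and 2872 bases inside and outside the complex, and GC contents of 47.6% and 51.7%. With the length and GC correction and the mean change kept, 6 of the 8 complex enzymes lay below 0. The medians were then -0.20 inside and 0.29 outside the complex.

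**Figure D3:**
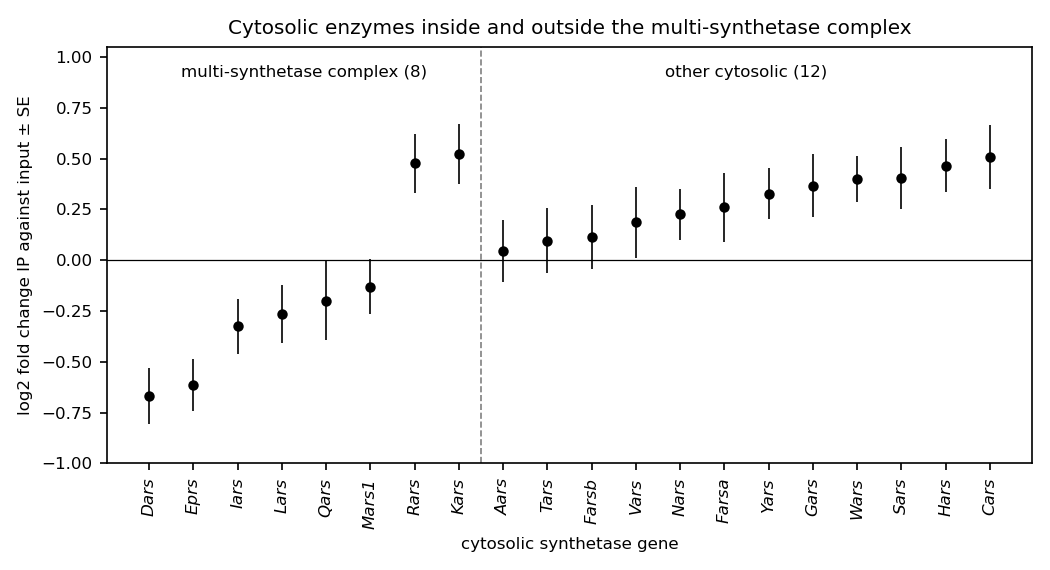
Log2 fold change of IP against input (edgeR, ± SE, 3 libraries per group) for the 20 cytosolic enzymes, with the 8 of the multi-synthetase complex left of the dashed line. Within the complex 6 points lie below 0, while all 12 others lie above 0 with TMM scaling. Within pools 1, 2 and 3, 11, 11 and 7 of the 12 others lie above 0. With the length and GC correction and the mean change set to 0, 2 of the 8 lie below 0.

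Of the 3 scaffold genes of the complex 1 was higher in IP and none lower, beside 12.9% and 17.1% of all tested genes. Eef1e1 was at 87.8 ± 9.73 CPM in IP and 49.7 ± 8.55 CPM in input (SD, n = 3; log2 fold change 0.82 ± 0.17 SE, edgeR adjusted p = 0.00778) and kept its call without any one library. Aimp1 (0.28, edgeR adjusted p = 0.142) and Aimp2 (-0.14, edgeR adjusted p = 0.669) were not called.

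Lars2 (chromosome 9, 123195992 to 123291731, mm39) differed more between IP and input than any other member. It was at 1054, 1222 and 1510 CPM in IP replicates 1, 2 and 3 and at 404, 200 and 448 CPM in input. Every IP library lay above every input library by more than 2-fold (log2 fold change 1.85 ± 0.29 SE, 3.60-fold, edgeR adjusted p = 0.00271). It was the one member called the same way under all 20 alternatives. Lars2 made up 80.1 to 85.7% of all counts of the 17 mitochondrial genes in IP and 46.0 to 65.0% in input.

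Because the level of Lars2 was so far from that of its family, it was set beside the ribosomal RNA genes of the same libraries. The gene is known to carry a stretch resembling ribosomal RNA. Rn18s-rs5, an 18S-related gene, was at 3069, 1208 and 2238 CPM in IP and 971, 512 and 1136 CPM in input, again higher in every IP library (log2 fold change 1.31 ± 0.37 SE, edgeR adjusted p = 0.0292). The mitochondrial ribosomal RNA mt-Rnr2 moved the other way, from 4628, 5891 and 6714 CPM in input to 298, 406 and 714 CPM in IP (-3.60 ± 0.33, edgeR adjusted p = 0.000237). The ratio of Lars2 to Rn18s-rs5 counts was 0.416, 0.391 and 0.394 in the input libraries and 0.343, 1.01 and 0.674 in the IP libraries. In input both genes were lowest in replicate 2 and kept close to one ratio, while in IP Rn18s-rs5 was lowest in replicate 2 and Lars2 in replicate 1. A blastn search of the 23 merged exon blocks of Lars2 (17698 bases) against 356 annotated ribosomal RNA genes of GRCm39 found 0 matches at an E value under 1e-05. No 28S ribosomal RNA sequence was used here. The part of ribosomal RNA reads in the Lars2 count was not tested.

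**Figure D4:**
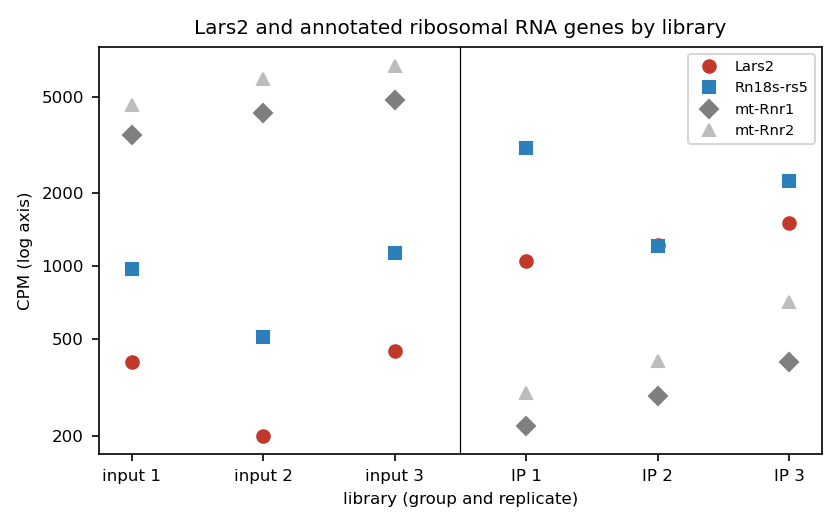
CPM (log axis) of Lars2 and 3 annotated ribosomal RNA genes in each of the 6 libraries. Lars2 and Rn18s-rs5 are higher in every IP library than in every input library, while mt-Rnr1 and mt-Rnr2 are lower.

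Besides Lars2, 2 mitochondrial enzymes were higher in IP. Tars2, the threonyl enzyme (chromosome 3, 95647288 to 95667518, mm39), was at 35.7, 36.0 and 33.3 CPM in IP and 18.0, 17.7 and 24.6 CPM in input. The groups were well apart (log2 fold change 0.80 ± 0.17 SE, edgeR adjusted p = 0.00892), and the call held without any one library. It was lost without both libraries of replicate 2 or of replicate 3. Aars2, the alanyl enzyme, was at 19.6, 26.5 and 17.2 CPM in IP and 13.6, 14.0 and 13.0 CPM in input (0.64 ± 0.19, edgeR adjusted p = 0.0362). The call on Aars2 was kept in 1 of 6 fits that left out a library and was lost without IP replicate 1, IP replicate 2 or any single input library, and with the length and GC correction and the mean change kept (edgeR adjusted p = 0.0534). Ears2 (glutamyl, 0.61, edgeR adjusted p = 0.0598) and Vars2 (valyl, 0.51, edgeR adjusted p = 0.0530) lay just outside the threshold, and DESeq2 called both.

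The mitochondrial enzymes lower in IP were Wars2 and Mars2. Wars2, the tryptophanyl enzyme (chromosome 3, 99048384 to 99146502, mm39), was at 3.41, 3.40 and 3.16 CPM in IP and 8.44, 7.49 and 5.90 CPM in input. It had the lowest FPKM and the lowest fold change of the family (log2 fold change -1.13 ± 0.24 SE, edgeR adjusted p = 0.00985), and kept its call without any one library but not with the length and GC correction whose mean change was set to 0. The call on Wars2 was also lost without both libraries of replicate 2 or of replicate 3. Mars2, the methionyl enzyme, was at 12.8, 12.3 and 10.5 CPM in IP and 26.1, 16.3 and 18.8 CPM in input (-0.78 ± 0.21, edgeR adjusted p = 0.0238). Its call held in 1 of the 6 fits without a library, that without input replicate 2. With the length and GC correction and the mean change kept, its log2 fold change was -0.12 (edgeR adjusted p = 0.588), and -0.12 with the replicate block as well (edgeR adjusted p = 0.610). With the mean change set to 0 its sign turned, to 0.17. Mars2 has the longest canonical transcript of the mitochondrial set (11294 bases) and the lowest GC content (38.8%). Cars2, the third lowest, was at 9.11, 8.09 and 5.18 CPM in IP and 9.81, 10.9 and 8.54 CPM in input and overlapped between groups (-0.39 ± 0.25, edgeR adjusted p = 0.283).

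Cytosolic and mitochondrial enzymes for the same amino acid were compared within each pool, as the difference of their log2 ratios of IP to input. Of 18 such pairs, 7 had the mitochondrial gene more enriched in all 3 pools, 5 had the cytosolic gene more enriched in all 3, and 6 were mixed. The median over pairs was 0.05. For tryptophan the 2 genes were called in opposite directions, Wars higher and Wars2 lower, with a difference of -1.51 ± 0.31 (SD, n = 3 pools). Cars2 minus Cars was -0.94 ± 0.10 and Mars2 minus Mars1 -0.62 ± 0.18. In the other direction, Lars2 minus Lars was 2.17 ± 0.44, Ears2 minus Eprs 1.23 ± 0.22, Pars2 minus Eprs 0.95 ± 0.20 and Tars2 minus Tars 0.74 ± 0.27. The pair values are not corrected for length and GC content. With that correction and the mean change kept, Mars1 had a log2 fold change of -0.21, below that of Mars2 given above. The order of the methionyl pair thus depends on the correction. The glutamyl and prolyl pairs share Eprs, and the 2 phenylalanyl pairs share Fars2. With 3 pools no p is given.

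**Figure D5:**
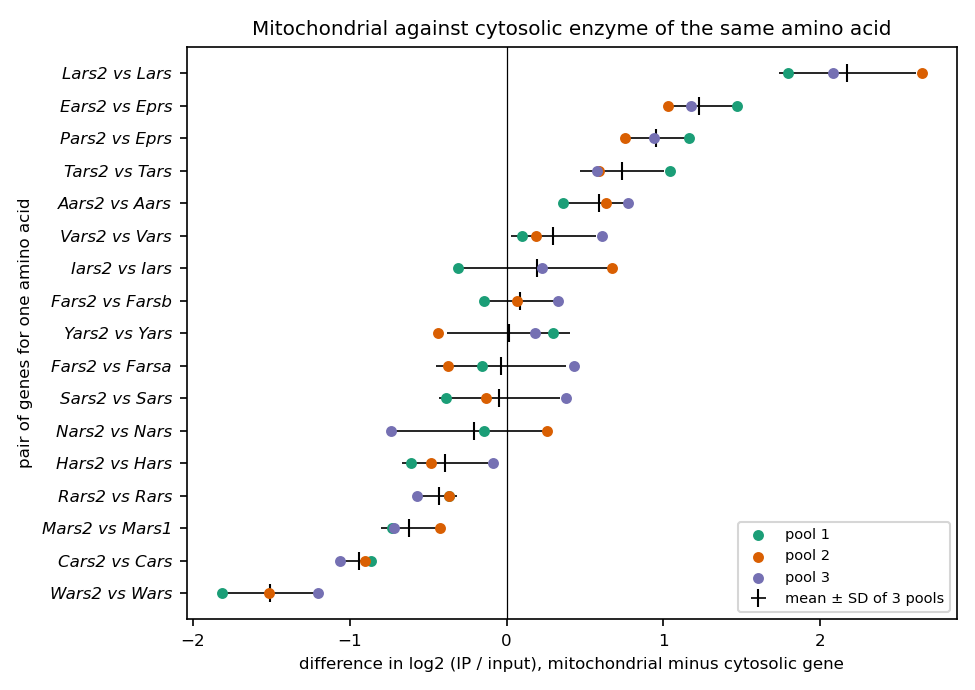
Difference in log2 ratio of IP to input CPM between the mitochondrial and the cytosolic gene of the same amino acid, with 1 point per pool and the mean ± SD of 3 pools. The leucyl pair is highest at 2.17 and the tryptophanyl pair lowest at -1.51, with 6 pairs of mixed sign between; 1 pair is not shown.

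The 2 structural classes of synthetase, which differ in the fold of the catalytic domain, were set side by side. Of 18 class I genes 4 were higher and 2 lower (median log2 fold change 0.12), and of 18 class II genes 4 were higher and 1 lower (median 0.24). Eprs, which joins both classes, was counted in neither. Of 8 members with dominant peripheral neuropathy alleles (Aars, Gars, Hars, Mars1, Nars, Sars, Wars and Yars) 2 were higher and none lower (median 0.35). Over all tested genes 12.9% were higher and 17.1% lower in IP.

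The enzymes with the amino acid response element shown above were not called in either direction: 0 of 5, with a median log2 fold change of 0.10. Of the 8 cytosolic enzymes whose promoter window lacked it, 1 was higher and 2 lower, with a median of -0.01. Cars, Rars, Hars and Wars, which are 4 of the 5 cytosolic enzymes called higher, had no entry in the promoter table and are in neither list. The transcription factor gene Atf4 itself was at 220 ± 26.2 CPM in IP and 142 ± 12.2 CPM in input (0.63 ± 0.14 SE, edgeR adjusted p = 0.0105). Among 22 tested genes of the amino acid response 3 were higher and 9 lower, beside 12.9% and 17.1% of all tested genes. Cebpb, a partner of ATF4, was higher (1.01 ± 0.23, edgeR adjusted p = 0.0124). The lowest were Phgdh, which begins serine synthesis (-2.85 ± 0.20, edgeR adjusted p = 7.82e-05), and Slc7a11, a cystine transporter (-2.73 ± 0.19, edgeR adjusted p = 7.9e-05). Both are known from astrocytes, whose 7 markers were also lower in IP, with log2 fold changes from -3.55 to -2.37. The part of astrocyte RNA in these values was not tested. Eif2ak4, which encodes GCN2, was lower (-0.56 ± 0.17, edgeR adjusted p = 0.0362), and lost the call in 4 of 6 fits without a library.

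Of the genes around the synthetases, those that process and modify tRNA were 6 higher and 1 lower of 17, with a median log2 fold change of 0.35. Beside this and the counts below, 12.9% of all tested genes were higher in IP and 17.1% lower. Whether these lists differ from that share was not tested. Pus1, a pseudouridine synthase, was at 24.8 ± 3.60 CPM in IP and 12.9 ± 1.39 CPM in input (0.95 ± 0.17, edgeR adjusted p = 0.00524). Tsen34, a subunit of the tRNA splicing endonuclease, had a log2 fold change of 0.67 ± 0.16 (edgeR adjusted p = 0.0165) and kept the call in 4 of 6 fits without a library. Ssb, the La protein that binds the ends of new tRNA precursors, was the one called lower (-0.47 ± 0.14, edgeR adjusted p = 0.0400) and kept the call in 0 of 6 fits without a library. Of 6 tested synthetase-like and editing proteins 3 were higher, among them Dtd1 (0.63 ± 0.15, edgeR adjusted p = 0.0138) and Dtd2 (0.63 ± 0.18, edgeR adjusted p = 0.0292), which remove D-amino acids or wrongly attached amino acids from tRNA. Without a library, the call on Dtd1 was kept in 5 of 6 fits and that on Dtd2 in 2 of 6. Mitochondria make glutaminyl-tRNA by converting glutamyl-tRNA rather than with an enzyme of their own. Of 4 genes for that route and for formylation of the initiator tRNA, Qrsl1 was called higher (0.54 ± 0.17, edgeR adjusted p = 0.0477), in 1 of 6 fits without a library as well.

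Exons of 25 of the 37 members overlap a gene on the opposite strand, and whether counting used strand is not given in the sources used here. Shares were taken over the merged exons of all GENCODE transcripts of a member, which can exceed the gene length that the table counts. For Mars1 these are 7580 and 3423 bases, so that the shares do not measure the counted exons. The share of a member's merged exon bases that overlap was 47.2% for Mars1 with Ddit3 and 33.9% for Mars2 with Boll. Next came Yars2 with Dnm1l (31.4%), Cars2 with Naxd (29.1%), Farsb with Sgpp2 (25.4%) and Iars2 with Rab3gap2 (21.5%). Hars and Hars2 overlap each other. Reads of partners on the opposite strand cannot be told apart from reads of the member if strand was not used. On the same strand, Aars shares 12.1% of its merged exon bases with the protein-coding gene Exosc6, an overlap that strand cannot resolve. In the authors' deposited table, made with DESeq2, 5 cytosolic enzymes are higher and 2 lower, and 5 mitochondrial enzymes are higher and 2 lower, at an adjusted p under 0.05. A DESeq2 fit of the same counts called 2883 genes higher and 3759 lower, of 27884 in the table.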

How the data were processed

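Poly(A)-selected libraries of 3 IP and 3 input samples were analysed. The submitters' processing notes name HISAT2, featureCounts, DESeq2 and the build mm39. Their versions are not given in the sources used here. The deposited table holds the authors' raw counts per gene, which alone were tested here. Its normalized signal is the authors' counts divided by a size factor per library, its FPKM values are the authors' counts scaled by gene length and depth, and its log2 fold changes and p-values are the authors' DESeq2 output, per the file headers.

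Sample titles gave the groups and replicate numbers. All genes were fitted with edgeR 4.0.16 (R 4.3.3): quasi-likelihood test, TMM scaling, filterByExpr by group, group as the one factor, two-sided, Benjamini-Hochberg adjustment over 18640 genes, threshold 0.05. CPM uses TMM-scaled library sizes, and an SE is the fold change divided by the square root of F. Pool values use log2 CPM with a prior count of 1. The script was run on simulated counts, and the tolerance on the recovered median fold change was widened after a simulated class of genes had missed it. A count of 3 corresponds to about 0.06 CPM in each library; reads carry no molecular identifiers.

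IP and input of one number share a pool, per the series' design text. Their deviations from the group means correlated at 0.25, 0.13 and 0.09, and those of different numbers between -0.20 and 0.08. The replicate block was an alternative. Replicates are pools of 3 animals.

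Members and lists were chosen with earlier results of these data known. Every member could be named, but values of 1 mitochondrial member are not reported here singly and enter only counts and medians; values in each library are given for Lars2, Gars, Kars, Eprs, the 3 highest and 3 lowest members of each compartment and the highest by level, and of related lists the 2 smallest adjusted p in each direction (marker lists by counts). Aimp1 and Aimp2 were named outside that rule, after their values were seen. Alternatives were DESeq2 1.42.0, other scalings and filters, the block, length and GC corrections (splines of 4 degrees of freedom; those with the mean change set to 0 were chosen after seeing the data) and leaving out libraries or replicates. Lars2 exons were searched with blastn 2.17.0.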

Additional observations from a re-analysis of the deposited data

How the results depend on the processing

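Of the 12 called members, 4 kept the call without any one library and 1, Lars2, under all 20 alternatives; of the 25 others, 12 were called under at least 1. Corrected for length and GC content with the mean change set to 0, the cytosolic enzymes gave 11 higher and 0 lower (median 0.50) and the mitochondrial 8 higher and 0 lower (median 0.47); with the replicate block added these were 11, 0 and 0.49, and 8, 0 and 0.46. This setting moved the median of all genes by 0.33 and its calls to 5231 higher and 2179 lower, from 2400 and 3191; with the block they were 5885 and 2478. Library totals alone moved that median by -0.11 (1734 higher, 3678 lower) and gave 0 cytosolic enzymes higher and a mitochondrial median of 0.10. Relative to the median of all genes, the cytosolic median was 0.27 by TMM, 0.23 with the mean change set to 0 and 0.27 with library totals. Upper-quartile factors gave 3 cytosolic enzymes higher, DESeq2 gave 5 mitochondrial enzymes higher, and the length and GC correction with the mean change kept gave 1 mitochondrial enzyme lower, also with the block. The replicate block alone changed the call of Sars and no other member.

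With a library or both libraries of a replicate left out, cytosolic counts ran from 0 to 5 higher and 0 to 2 lower, mitochondrial counts from 1 to 3 higher and 0 to 2 lower, cytosolic medians from 0.14 to 0.29 and mitochondrial medians from 0.12 to 0.35. Without both libraries of replicate 3, 133 genes were higher and 742 lower. The cause of these differences was not tested.

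Among the members reported singly, signs changed in some that were not called, and in Mars2. With the mean change set to 0, and then with the block added, Mars1 went to 0.079 and 0.080, Qars to 0.064 and 0.072, Lars to 0.17 and 0.18, Iars to 0.11 and 0.11, Iars2 to 0.38 and 0.36 and Mars2 to 0.17 and 0.17. With the mean change kept, and then with the block, Farsa went to -0.0066 and -0.019, Aars to -0.014 and -0.018, Fars2 to -0.021 and -0.019 and Iars2 to 0.083 and 0.066. With library totals Tars went to -0.010, Aars to -0.063, Hars2 to -0.032, Rars2 to -0.048 and Nars2 to -0.078. With libraries or replicates left out, Farsb ran from -0.037 to 0.25, Tars from -0.064 to 0.21, Aars from -0.053 to 0.23, Hars2 from -0.012 to 0.14, Rars2 from -0.057 to 0.16, Nars2 from -0.14 to 0.29 and Iars2 from -0.35 to 0.14. The cause was not tested. Members of low counts, such as Wars2, rest on the fewest reads.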
